A study of Mus musculus with 8 samples.

Results

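The synaptic vesicle and exocytosis machinery was examined here as 55 genes that encode Rab GTPases and their effectors, vesicle and target SNAREs, calcium sensors, synapsins, vesicle membrane proteins and proteins of the active zone. The genes were taken from a list, and their probes were found through the RefSeq accession that the array design gives for each probe, over 26262 gene features tested in all. A probe was matched for 54 of the 55 genes. The 48 that exceeded background clearly on 2 or more of the 8 arrays were tested. Syt2, Syt13, Synpr, Doc2b and Rab27b were above background on 0 arrays, Cadps2 was above it on 1 array, and Syt5 was not analysed here.

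Expression was measured on 8 one-colour Agilent arrays, 2 in each of 4 groups. These were the 2/4 clone with all-trans retinoic acid (RA), the 2/4 clone untreated, the parental N18TG2 line with RA and the parental line untreated. N18TG2 is a mouse neuroblastoma line, and 2/4 is 1 clone of it, labelled as expressing ChAT, the choline acetyltransferase that synthesises acetylcholine. G418 at 200 µg/mL maintained the clone and therefore goes with the line. Treated cells received 1 µM RA in a 1% serum medium, whereas growth medium held 10% serum. The medium of the untreated cells and the duration of RA are not given in the sources used here, so a serum difference may go with RA. Whether the 2 arrays of a group stem from separate cultures is not stated, so the p-values may measure technical spread alone.

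Neurotransmitter is stored in vesicles that dock at the presynaptic membrane, are primed, and fuse when calcium enters. Fusion is driven by the pairing of a vesicle SNARE (a Vamp protein) with target SNAREs (syntaxins and SNAP-25 relatives), synaptotagmins sense the calcium, Rab3 GTPases and their effectors guide docking, and synapsins hold vesicles in reserve. Many of these proteins come in families of related genes, and neurons and neuroendocrine cells use different members for vesicles of different kinds.

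Across all arrays the 75th percentile of background-subtracted intensity ran from 264.8 to 1264, and 47.76% to 62.78% of probes were well above background on 7 arrays, against 71.76% on clone RA replicate 1. Replicate correlation across genes was lowest in the clone with RA (r = 0.9625, against 0.983 to 0.9872 in the other groups). The sympathoadrenal markers Hand2, Th and Dbh were each above background on all 8 arrays. The extraction protocol names hippocampus. The hippocampal markers Neurod6, Prox1 and Gad1 were above background on 0 arrays, and 3 of the 7 hippocampal markers were tested. Of these, Camk2a and Wfs1 were above background on all 8 arrays and higher in the untreated clone, by log2 1.4 (adjusted p = 0.0258) and 1.32 (adjusted p = 0.0295), while Slc17a7 was above background on 2 arrays. The summed linear level of the 3 tested ones, relative to each array's 75th percentile, was 4.51 to 5.18 in the clone with RA, 12.9 to 13.3 in the untreated clone, 3.92 to 5.32 in the parental line with RA and 5.21 to 5.3 in the untreated parental line. The sum over the 6 tested of 7 glial markers was 0.669 to 0.698 and 0.658 to 0.712 in the clone with RA and untreated, against 0.927 to 1.44 and 1.72 to 1.85 in the parental line with RA and untreated. The sum over the 3 tested of 5 markers of blood vessels and microglia, with Cdh5 and Cx3cr1 above background on 0 arrays, was 1.15 to 1.48 and 1.12 to 1.4 in the clone, against 0.212 to 0.284 and 0.409 to 0.513 in the parental line, with RA and untreated in that order. The sum over the 4 tested of 5 fibroblast markers, with Lum above background on 0 arrays, was 1.2 to 1.25 and 1.05 to 1.21 in the clone, against 0.56 to 0.711 and 0.802 to 1.15 in the parental line. The part of these marker differences in the results below was not tested, and fewer cells of a type cannot be told apart from less RNA per cell. Chat itself differed by log2 3.40 ± 1.27 (SE) between the lines with RA (adjusted p = 0.0996) and by 0.38 ± 1.27 without RA (adjusted p = 0.897), and neither difference was called. In log2 relative to the 75th percentile, Chat read 1.10 and -2.58 in the clone with RA and -3.73 and -2.71 in the untreated clone. It read -3.22 and -5.06, then -2.63 and -4.57 in the parental line with RA and untreated, so clone RA replicate 1 alone stood apart.

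The promoters of the 6 genes whose difference between the untreated lines was called whichever array was left out are shown first, since the results turn on these genes. They are Rab3a, Rab3b, Vamp1, Stx3, Syt3 and Syn1. Each run gives the 250 bases before 1 annotated start of the gene, 5′ to 3′ on the gene's strand, from RefSeq on GRCm38.p6. The windows of Rab3a, Rab3b, Vamp1 and Syn1 adjoin the outer end of the gene, whereas those of Stx3 and Syt3 lie inside the annotated span of the gene, which begins further upstream than the start used here. Capitals mark, on either strand, the core of the cAMP response element (TGACG) or the whole element (TGACGTCA), the GC box (GGGCGG), the TATA box (TATAAA) and the left part of the element bound by REST, a repressor of neuronal genes (CAGCACC). The unit of RA receptor elements (AGGTCA) was also searched.
Rab3a, chr8:70754453-70754702, plus strand: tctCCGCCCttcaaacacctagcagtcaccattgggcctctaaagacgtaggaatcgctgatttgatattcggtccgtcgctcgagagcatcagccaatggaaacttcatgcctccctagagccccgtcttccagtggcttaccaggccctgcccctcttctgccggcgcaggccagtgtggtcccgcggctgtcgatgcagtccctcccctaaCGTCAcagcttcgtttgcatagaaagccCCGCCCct
Rab3b, chr4:108878820-108879069, plus strand: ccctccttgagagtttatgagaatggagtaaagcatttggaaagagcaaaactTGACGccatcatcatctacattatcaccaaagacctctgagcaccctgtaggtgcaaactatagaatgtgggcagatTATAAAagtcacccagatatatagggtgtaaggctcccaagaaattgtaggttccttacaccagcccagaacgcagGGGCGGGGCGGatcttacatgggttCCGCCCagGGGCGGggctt
Vamp1, chr6:125215331-125215580, plus strand: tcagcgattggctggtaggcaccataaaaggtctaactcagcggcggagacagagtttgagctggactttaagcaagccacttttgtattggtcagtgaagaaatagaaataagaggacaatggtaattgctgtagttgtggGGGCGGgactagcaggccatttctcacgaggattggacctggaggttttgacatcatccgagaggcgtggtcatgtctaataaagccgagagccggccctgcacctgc
Stx3, chr19:11819404-11819653, minus strand: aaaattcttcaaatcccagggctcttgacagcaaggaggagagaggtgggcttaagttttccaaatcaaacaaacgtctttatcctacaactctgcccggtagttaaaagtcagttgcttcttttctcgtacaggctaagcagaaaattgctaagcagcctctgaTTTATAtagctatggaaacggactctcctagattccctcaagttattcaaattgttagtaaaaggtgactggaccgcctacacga
Syt3, chr7:44383876-44384125, plus strand: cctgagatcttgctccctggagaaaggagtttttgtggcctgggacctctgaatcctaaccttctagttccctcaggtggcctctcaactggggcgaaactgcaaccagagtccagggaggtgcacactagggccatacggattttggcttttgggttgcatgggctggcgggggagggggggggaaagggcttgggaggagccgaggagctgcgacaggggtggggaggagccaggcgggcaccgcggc
Syn1, chrX:20920919-20921168, minus strand: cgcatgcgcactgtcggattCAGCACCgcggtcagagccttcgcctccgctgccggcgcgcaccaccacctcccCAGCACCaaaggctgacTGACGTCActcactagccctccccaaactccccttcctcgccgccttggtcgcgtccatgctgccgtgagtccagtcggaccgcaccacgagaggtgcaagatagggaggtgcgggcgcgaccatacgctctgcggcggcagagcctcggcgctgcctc
Rab3a has 2 listed windows, of which the first is shown.

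The Syn1 window held the whole cAMP response element from base -159 to base -152 before the start, and the left part of the REST element at -230 and at -176. The whole cAMP element occurred in 1.55% of 32851 mouse promoter windows of this length, and the left part of the REST element in 5.73%. Rab3b held 4 GC boxes, of which a pair overlap, and a TATA box at -120, while Rab3a held 2 GC boxes. GC boxes occurred in 60.3% of the 58 windows of the 42 listed genes that had one, and in 32.7% of all windows. The other shares, in windows of the listed genes and in all windows, were 19% and 17.8% for TGACG, 8.62% and 12.4% for TATAAA, 10.3% and 14% for AGGTCA and 5.17% and 5.73% for CAGCACC. The Syt3 window printed here held 0 of these motifs, and AGGTCA was in 0 of the 6 windows, which says only that these letters are not in these windows.

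Between the untreated lines, 12 of the 48 tested genes (25%) passed an adjusted p of 0.05 (limma, Benjamini-Hochberg over all genes) and are said to be called, 10 higher and 2 lower in the clone, where 9.82% of all genes were called, 6.13% higher and 3.69% lower. With RA in both lines 22 (45.8%) were called, 19 higher and 3 lower, where 23.2% of all genes were, 12.9% higher and 10.2% lower. The median difference of the 48 genes was log2 0.39 untreated and log2 0.94 with RA, and that of all genes was 0.11 in both. Averaged over RA and untreated, 24 of the 48 were called (50%), 19 higher and 5 lower, where 27.7% of all genes were, 16.1% higher and 11.6% lower. Of the 48, 18 were higher on all 4 clone arrays than on all 4 parental arrays, as were 15.1% of all genes. Vamp1 was the only 1 of the 48 lower on all 4, as were 10.1% of all genes. In all, 11 of the 48 were called in the same direction untreated and with RA, as were 7.46% of all genes, and 38 had the same sign in both, as did 73.7% of all genes. Stx3, Syt9, Sv2b and Cadps were above background on clone arrays alone, so they passed the filter only through the line where they were higher. All of them are among the genes called higher with RA and on average. Stx3 and Sv2b are also among those called untreated and those higher on all 4 clone arrays. The same filter applied to all genes, and its part in these shares was not tested. By role, 3 of 3 tested synapsins, 5 of 7 synaptotagmins and 4 of 6 Rab genes and effectors were called with RA, against 2 of 11 target SNAREs and their regulators and 1 of 6 Vamp genes. Differences between roles were not tested. The row of the slide goes with the line in both single line comparisons, untreated and with RA. Row and line therefore cannot be told apart there, also for the single genes below, and row is balanced in the average only. In the untreated comparison, leaving out clone untreated replicate 1, clone untreated replicate 2 or parental untreated replicate 2 left 6 calls each, and leaving out parental untreated replicate 1 left 7.

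**Figure D1:**
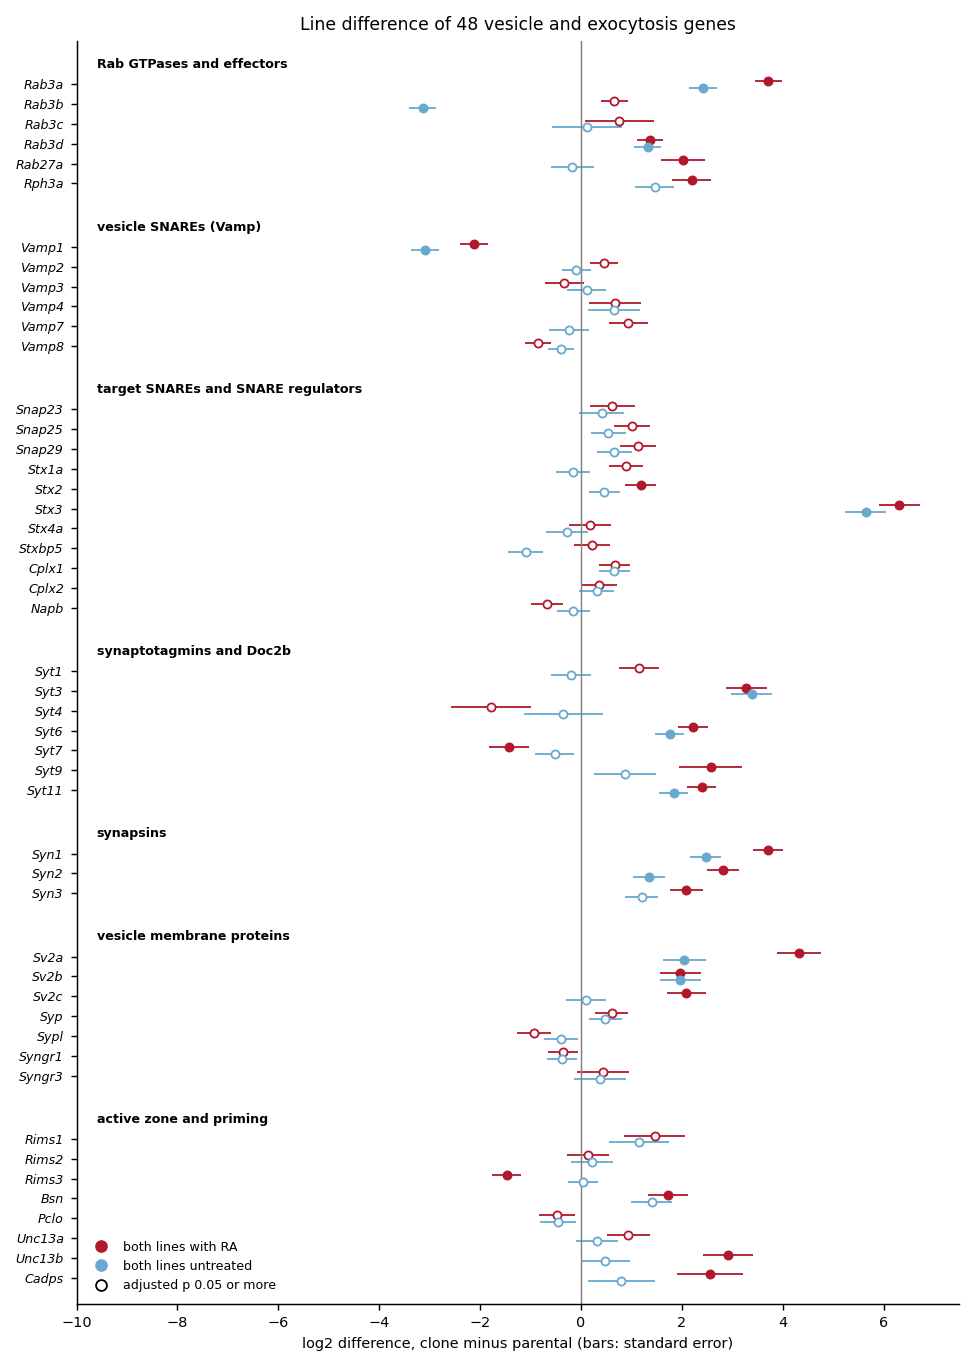
Line difference of the 48 tested genes by role, as log2 clone minus parental with its standard error, with RA (red) and untreated (blue); filled points have an adjusted p under 0.05. Points of Stx3, Syt9, Sv2b and Cadps, and the untreated point of Rph3a, rest on parental signals not above background, so the sizes of these differences are not measured. Vamp1 lay at -3.09 untreated, and Rab3b lay at -3.14 untreated and 0.66 with RA.

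The Rab3 GTPases cycle on and off secretory vesicles and recruit effectors to them. Between the lines 3 of the 4 members were called, not all in the same direction, where 9.82% of all genes were untreated and 23.2% with RA. Rab3a, the main form in brain synapses, was 5.37-fold higher in the untreated clone and 13.1-fold higher in the clone with RA. Rab3b, known from pituitary and other secretory cells, was 8.81-fold lower in the untreated clone. Rab3d, described mostly on granules of exocrine cells, was 2.49-fold higher untreated and 2.57-fold higher with RA, and Rab3c did not pass the test in any comparison on its brightest probe.

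Values are log2 intensities relative to the array's 75th percentile, and a level is comparable between arrays for 1 probe but not between genes. Rab3a read 4.78 and 4.77 in the clone with RA and 4.5 and 4.94 in the untreated clone, against 0.97 and 1.16 in the parental line with RA and 2.27 and 2.33 in the untreated parental line. The 4 clone arrays stood above the 4 parental ones, and the parental arrays with RA stood below the untreated ones. The line difference of Rab3a was 2.42 ± 0.27 (SE) untreated (adjusted p = 0.00245) and 3.71 ± 0.27 with RA (adjusted p = 0.000311). Its RA difference in the parental line, -1.23 ± 0.27, missed the threshold (adjusted p = 0.0942).

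Rab3b read -1.21 and -1.48 in the clone with RA and -3.44 and -3.48 in the untreated clone, against -2.15 and -1.87 in the parental line with RA and -0.20 and -0.44 in the untreated parental line. RA thus went with a higher level in the clone and a lower level in the parental line, with no overlap between arrays. The line difference was -3.14 ± 0.27 untreated (adjusted p = 0.00082) and 0.66 with RA (adjusted p = 0.127). Averaged over both states it was -1.24 ± 0.19 (adjusted p = 0.00382). The RA difference was 2.11 ± 0.27 in the clone (adjusted p = 0.0189) and -1.69 ± 0.27 in the parental line (adjusted p = 0.0451). Rab3b was the only 1 of the 48 genes with a called interaction, the RA difference in the clone minus that in the parental line, of 3.80 ± 0.39 (adjusted p = 0.0323), where 0.206% of all genes were called, 0.122% above 0 and 0.0838% below. That call was lost without either untreated clone array or any of the 4 parental arrays (3.66 to 3.94, adjusted p 0.125 to 0.248), and with slide side as a block (3.80, adjusted p = 0.0572), and the untreated line difference was kept in all alternatives run. The RA call in the clone was lost without clone untreated replicate 1 (2.13, adjusted p = 0.129) or replicate 2 (2.09, adjusted p = 0.165), and that in the parental line without any of the same 6 arrays (-1.83 to -1.55, adjusted p 0.12 to 0.301) or with slide side as a block (adjusted p = 0.0635).

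Rab3d read 1.28 and 1.41 in the clone with RA and 1.49 and 1.54 in the untreated clone, against -0.15 and 0.11 in the parental line with RA and 0.28 and 0.11 in the untreated parental line. All clone arrays stood above all parental arrays, and RA moved neither line by a called amount. The line difference was 1.32 ± 0.26 untreated (adjusted p = 0.0222) and 1.36 ± 0.26 with RA (adjusted p = 0.0108). The call with RA was lost in a fit of only the groups compared (adjusted p = 0.0774) and with a 2-fold threshold (adjusted p = 0.582). With no filter for dim probes the untreated call was lost (adjusted p = 0.0715). The untreated call was lost without any 1 of the 4 untreated arrays (1.23 to 1.4, adjusted p 0.103 to 0.151) and with the mean of its probes (1.11, adjusted p = 0.156). Rab3c, for its brightest probe, read 5.83 and 4.63, then 4.88 and 4.33 in the clone with RA and untreated, against 5.46 and 3.49, then 4.67 and 4.29 in the parental line with RA and untreated, and the groups overlapped. Rab3a minus Rab3b on an array, which compares changes and not levels, was higher in the clone by log2 5.56 untreated and by 3.05 with RA, and Rab3d minus Rab3b by 4.46 and 0.70.

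**Figure D2:**
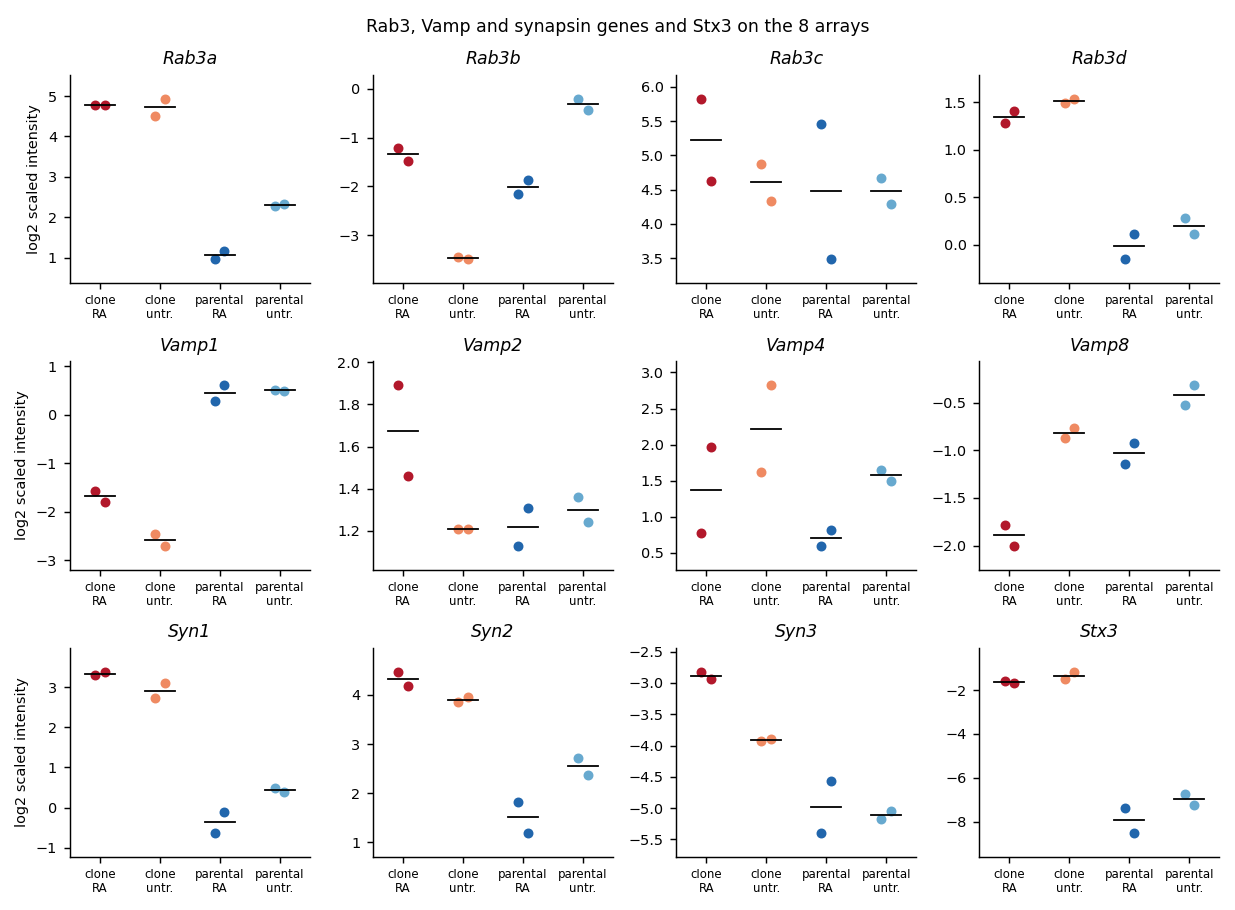
Log2 intensity relative to the array's 75th percentile for the Rab3 genes, 4 Vamp genes, the synapsins and Stx3 in the 4 groups; points are arrays, lines are group means, and each panel has its own axis. Rab3a, Rab3d, Syn1, Syn2, Syn3 and Stx3 are higher on all 4 clone arrays than on the 4 parental ones, Vamp1 is lower on all 4, and Rab3b rises with RA in the clone and falls with RA in the parental line.

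Rab27a, a GTPase that docks granules in endocrine and immune cells, read -0.29 and 0.14 in the clone with RA and -2.66 and -1.83 in the untreated clone, against -2.36 and -1.83 in the parental line with RA and -2.45 and -1.70 in the untreated parental line. The clone with RA stood above the other 3 groups, which overlapped. Its line difference with RA was 2.02 ± 0.43 (adjusted p = 0.0163), and its RA difference in the clone was 2.17 ± 0.43 (adjusted p = 0.0405). The second call was lost whichever of the 8 arrays was left out (1.75 to 2.59, adjusted p 0.0521 to 0.203), and the line call without parental RA replicate 1 (1.76, adjusted p = 0.084). Rph3a encodes rabphilin, an effector of Rab3 on vesicles. It read -4.04 and -3.23 in the clone with RA and -4.15 and -3.99 in the untreated clone, against -5.85 and -5.79 in the parental line with RA and -5.13 and -5.93 in the untreated parental line. It was above background on 1 parental array, with RA, and all clone arrays stood above all parental ones. The line difference was 2.19 ± 0.39 with RA (adjusted p = 0.00867), and the untreated one of at least 2.76-fold missed the threshold (adjusted p = 0.0649). The call with RA was lost under normexp background correction (0.84, adjusted p = 0.318) and quantile normalization (1.03, adjusted p = 0.413).

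Among the vesicle SNAREs, 1 of 6 Vamp genes (16.7%) was called between the lines in each state, and the neuronal pair moved unequally. Of all genes, 9.82% were called untreated and 23.2% with RA. Vamp1, a synaptobrevin prominent in spinal cord and at the neuromuscular junction, was 8.51-fold lower in the untreated clone and 4.34-fold lower in the clone with RA. Vamp2, the main synaptobrevin of brain synapses, did not pass the test in any comparison. Vamp1 read -1.57 and -1.80 in the clone with RA and -2.47 and -2.70 in the untreated clone, against 0.27 and 0.60 in the parental line with RA and 0.51 and 0.49 in the untreated parental line. The 4 clone arrays stood below the 4 parental ones by more than the spread within any group. The line difference was -3.09 ± 0.27 untreated (adjusted p = 0.000864) and -2.12 ± 0.27 with RA (adjusted p = 0.00234), and both calls were kept in all alternatives run.

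Vamp2 read 1.89 and 1.46 in the clone with RA and 1.21 and 1.21 in the untreated clone, against 1.13 and 1.31 in the parental line with RA and 1.36 and 1.24 in the untreated parental line. The lines overlapped, and the line difference was -0.09 untreated (95% interval -0.74 to 0.56) and 0.46 with RA (-0.19 to 1.11). Vamp1 minus Vamp2 on an array differed between clone and parental line by log2 -3.00 untreated and by -2.58 with RA. Vamp8, a SNARE of late endosomes and of secretory granules outside neurons, read -1.78 and -2.00 in the clone with RA and -0.87 and -0.77 in the untreated clone, against -1.14 and -0.92 in the parental line with RA and -0.52 and -0.32 in the untreated parental line. Within each line the arrays with RA stood below the untreated ones. Its averages were -0.63 ± 0.19 between the lines (adjusted p = 0.0448) and -0.84 ± 0.19 for RA (adjusted p = 0.0492), and both calls were lost whichever array was left out (-0.68 to -0.57 with adjusted p 0.0552 to 0.137, and -0.89 to -0.78 with adjusted p 0.0678 to 0.192). Vamp3, of recycling endosomes, read -0.51 and 0.08 in the clone with RA and -0.37 and -0.62 in the untreated clone, against -0.23 and 0.45, then -0.92 and -0.29 in the parental line with RA and untreated. Vamp4, of the trans-Golgi network, read 0.78 and 1.97, then 1.62 and 2.82 in the clone with RA and untreated, against 0.60 and 0.82, then 1.65 and 1.5 in the parental line. Vamp7, of late endosomes and growing neurites, read 0.41 and 1.05, then 0.62 and 0.98 in the clone with RA and untreated, against -0.10 and -0.32, then 1.46 and 0.62 in the parental line. On these brightest probes the lines overlapped for all 3 genes, and their line differences ran from -0.33 to 0.94, none called. The other Vamp4 probe read 1.19 and 1.31, then 1.35 and 1.77 in the clone with RA and untreated, against 0.29 and 0.26, then 0.39 and 0.40 in the parental line. There the lines did not overlap, with an average difference of 1.07 ± 0.20 (adjusted p over all probes = 0.00942), while the single comparisons, at 1.16 untreated and 0.97 with RA, missed the threshold (adjusted p = 0.0537 and 0.0524).

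Of the 11 target SNAREs and SNARE regulators, 1 (9.09%) was called between the untreated lines and 2 (18.2%) with RA, all higher in the clone. The shares of all genes called were 9.82% and 23.2%. Stx3, a syntaxin of apical membranes and ribbon synapses, was well above background on all 4 clone arrays and on 0 of 4 parental arrays. It read -1.60 and -1.67 in the clone with RA and -1.49 and -1.19 in the untreated clone, against -7.40 and -8.50 in the parental line with RA and -6.73 and -7.23 in the untreated parental line. Since the parental level is only a bound, Stx3 on its brightest probe was at least 32.2-fold higher in the clone with RA (adjusted p = 0.000202). In the untreated clone that probe was at least 24.6-fold higher (adjusted p = 0.000474). "At least" sets the clone mean against the higher of the dimmest signal above background and the gene's own signal on each parental array. With normexp correction, which lifts dim signals, the untreated difference was 1.77 (adjusted p = 0.121).

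Syntaxin 1A and SNAP-25, which form the fusion complex of most synapses, were not called in any comparison. Stx1a read 2.52 and 3.07 in the clone with RA and 1.62 and 1.55 in the untreated clone, against 1.63 and 2.17, then 1.59 and 1.90 in the parental line with RA and untreated. Snap25 read 4.79 and 3.90, then 3.85 and 3.90 in the clone with RA and untreated, against 3.35 and 3.32, then 3.49 and 3.18 in the parental line. All clone arrays stood above all parental arrays for Snap25, and its line difference was 0.54 untreated (95% interval -0.29 to 1.37) and 1.01 with RA (0.18 to 1.84, adjusted p = 0.0819). Stx2, a syntaxin of the plasma membrane in many cell types, read 1.15 and 1.23, then 0.81 and 0.63 in the clone with RA and untreated, against 0.35 and -0.33, then 0.23 and 0.29 in the parental line. The lines did not overlap, and the difference was 1.18 ± 0.31 with RA (adjusted p = 0.0341). That call was lost in 7 of the 8 fits that left out 1 array, all but the one without parental RA replicate 1 (0.84 to 1.22, adjusted p 0.0631 to 0.109), and with the mean of its probes (0.42, adjusted p = 0.533). The average of Stx2 was 0.82 ± 0.22 (adjusted p = 0.0308). Snap29, of endosomes and autophagosomes, read 1.70 and 1.67, then 1.08 and 1.14 in the clone with RA and untreated, against 0.84 and 0.26, then 0.84 and 0.07 in the parental line, with an average difference of 0.90 ± 0.25 (adjusted p = 0.0366). The average calls were lost without 7 of the 8 arrays for Stx2 (adjusted p 0.0507 to 0.105), all but parental RA replicate 1, and without 5 for Snap29 (adjusted p 0.064 to 0.11), which were clone RA replicate 1, both untreated clone arrays, parental RA replicate 2 and parental untreated replicate 2.

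Stxbp5 encodes tomosyn, which occupies target SNAREs and limits priming. It read -2.08 and -1.76 in the clone with RA and -4.0 and -3.72 in the untreated clone, against -1.75 and -2.53 in the parental line with RA and -2.60 and -2.92 in the untreated parental line. Within each line the arrays with RA stood above the untreated ones. The RA difference was 1.94 ± 0.35 in the clone (adjusted p = 0.0331) and 1.28 ± 0.25 averaged over both lines (adjusted p = 0.0338). The call in the clone was lost without clone RA replicate 1 or any of the 4 untreated arrays (1.80 to 2.10, adjusted p 0.0639 to 0.192), and the average call without parental RA replicate 1 or any of the 4 untreated arrays (1.08 to 1.36, adjusted p 0.0786 to 0.128). Both were lost with normexp (1.17, adjusted p = 0.203 in the clone and 0.68, adjusted p = 0.31 on average) and quantile normalization (1.44, adjusted p = 0.142 and 0.96, adjusted p = 0.162). The complexins Cplx1 and Cplx2, which clamp the assembled SNAREs, as well as Napb, Snap23 and Stx4a were not called on their brightest probes. Their line differences, with those of Stx1a, Snap25 and Snap29, ran from -0.68 for Napb with RA to 1.13 for Snap29 with RA.

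Of the 7 synaptotagmins tested, 3 were higher in the untreated clone, and with RA 4 were higher and 1 lower. The called shares were 42.9% untreated and 71.4% with RA, where 9.82% and 23.2% of all genes were called. Syt3, which is grouped with Syt6 by its shared disulfide-linked N terminus, was 10.4-fold higher in the untreated clone and 9.72-fold higher in the clone with RA. Syt3 read -0.96 and -0.76 in the clone with RA and -1.06 and -1.07 in the untreated clone, against -4.71 and -3.57 in the parental line with RA and -4.22 and -4.68 in the untreated parental line. The clone arrays stood above the parental ones with a wide gap, and both calls were kept in all alternatives run (3.38 ± 0.41, adjusted p = 0.00343 untreated, and 3.28 ± 0.41, adjusted p = 0.00217 with RA).

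Syt6 read 5.59 and 5.32 in the clone with RA and 5.2 and 5.01 in the untreated clone, against 3.01 and 3.45 in the parental line with RA and 3.23 and 3.46 in the untreated parental line. Syt11, a form that does not bind calcium in the usual way, read 5.40 and 5.46, then 5.01 and 5.33 in the clone with RA and untreated, against 3.17 and 2.91, then 3.53 and 3.12 in the parental line. In both genes the clone arrays stood above the parental ones and the states within a line lay close together. The differences were 2.22 ± 0.29 (adjusted p = 0.00248) for Syt6 and 2.39 ± 0.29 (adjusted p = 0.00183) for Syt11 with RA, and 1.76 ± 0.29 (adjusted p = 0.0113) and 1.84 ± 0.29 (adjusted p = 0.00933) untreated. The untreated call of Syt6 was lost without any of the 4 untreated arrays (1.65 to 1.88, adjusted p 0.0594 to 0.0899), and that of Syt11 without either untreated clone array or parental untreated replicate 2 (1.64 to 2.00, adjusted p 0.0508 to 0.0927).

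Syt1, the fast calcium sensor of most synapses, read 4.16 and 4.07 in the clone with RA and 3.28 and 2.81 in the untreated clone, against 3.29 and 2.65 in the parental line with RA and 3.65 and 2.84 in the untreated parental line. Only the clone with RA stood apart, and its line difference with RA of 1.15 (95% interval 0.23 to 2.07) missed the threshold (adjusted p = 0.0765). Syt4, an immediate early gene product that lacks usual calcium binding, read 1.07 and -0.84, then 3.01 and 0.97 in the clone with RA and untreated, against 2.09 and 1.72, then 2.44 and 2.24 in the parental line. In the clone the left array of the slide exceeded the right one by nearly the same amount in each state, and Syt4 was not called in any comparison.

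Syt7, a high-affinity sensor of slow release and of dense-core vesicles, went the other way. It read -2.95 and -2.23 in the clone with RA and -3.48 and -4.05 in the untreated clone, against -1.35 and -0.97 in the parental line with RA and -2.97 and -3.53 in the untreated parental line. Arrays with RA stood above the untreated ones within each line, and the clone with RA stood below the parental line with RA. The RA difference averaged over both lines was 1.64 ± 0.27 (adjusted p = 0.0251), and the line difference was -1.43 ± 0.39 with RA (adjusted p = 0.0385) and -0.98 ± 0.27 on average (adjusted p = 0.0378). The 2 line calls were lost without each array other than clone RA replicate 2 (adjusted p 0.0562 to 0.151 with RA and 0.0567 to 0.129 on average), and the RA call without any untreated or parental array (1.49 to 1.78, adjusted p 0.0705 to 0.117). With the mean of its probes the line difference of Syt7 was -0.27 with RA (adjusted p = 0.704) and -0.23 on average (adjusted p = 0.625), and with slide side as a block the line difference with RA had an adjusted p of 0.0512. The average RA call of Syt7 was also lost with normexp (1.01, adjusted p = 0.1) and quantile normalization (1.16, adjusted p = 0.224). It was lost too with no filter (adjusted p = 0.0842) and the mean of its probes (1.41, adjusted p = 0.0581). Syt9, a fast sensor in some neurons, read -4.65 and -4.86, then -6.20 and -5.67 in the clone with RA and untreated, against -7.53 and -7.11, then -5.80 and -7.81 in the parental line, where it was above background on 0 arrays. It was at least 3.70-fold higher in the clone with RA (adjusted p = 0.0263), a call lost without either parental RA array or clone RA replicate 1 (adjusted p 0.0635 to 0.121) and under normexp (0.44, adjusted p = 0.74).

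**Figure D3:**
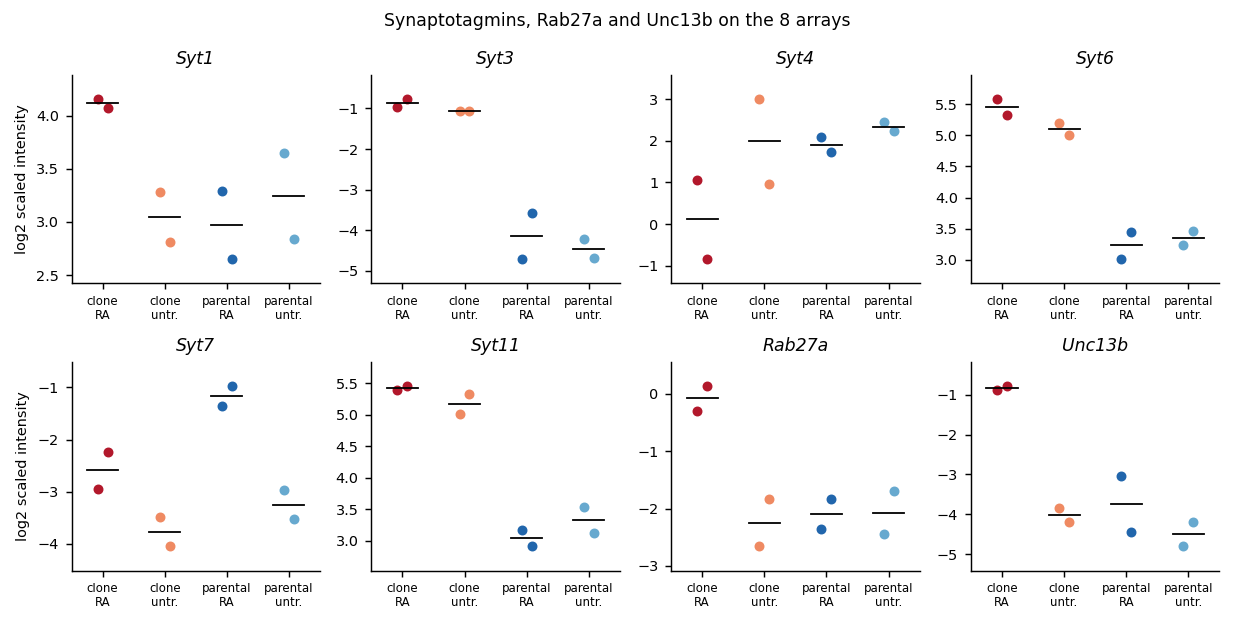
Log2 intensity relative to the array's 75th percentile for 6 synaptotagmins, Rab27a and Unc13b in the 4 groups; points are arrays and lines are group means, with an axis for each panel. Syt3, Syt6 and Syt11 are higher on all clone arrays, Rab27a and Unc13b are highest in the clone with RA, and Syt7 is highest in the parental line with RA.

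The synapsins coat vesicles and tether them to actin. All 3 were higher on all 4 clone arrays than on the parental ones, as were 15.1% of all genes. Syn1 read 3.31 and 3.37 in the clone with RA and 2.73 and 3.1 in the untreated clone, against -0.62 and -0.11 in the parental line with RA and 0.50 and 0.40 in the untreated parental line. The line difference was 3.71 ± 0.30 with RA (adjusted p = 0.000403) and 2.47 ± 0.30 untreated (adjusted p = 0.00322), or 13-fold and 5.52-fold. Both were kept in all alternatives run. Syn2 read 4.46 and 4.18, then 3.85 and 3.95 in the clone with RA and untreated, against 1.82 and 1.2, then 2.72 and 2.37 in the parental line. In the clone the arrays with RA stood above the untreated ones, and in the parental line below them. Its difference was 2.81 ± 0.32 with RA (adjusted p = 0.00145) and 1.35 ± 0.32 untreated (adjusted p = 0.0423), the second lost without any of the 4 untreated arrays (1.18 to 1.53, adjusted p 0.125 to 0.225) and with the mean of its probes (0.85, adjusted p = 0.102). Syn3 read -2.83 and -2.94, then -3.93 and -3.90 in the clone with RA and untreated, against -5.39 and -4.56, then -5.18 and -5.04 in the parental line, where it was above background on 1 array of each group. Its difference was 2.09 ± 0.33 with RA (adjusted p = 0.00538) and 1.2 ± 0.33 untreated (adjusted p = 0.0716). With normexp the difference of Syn3 with RA was 0.93 (adjusted p = 0.183) and with quantile normalization 1.33 (adjusted p = 0.0814). Syn1 minus Syn2 on an array was higher in the clone by log2 1.11 untreated and by 0.90 with RA.

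Of the 7 vesicle membrane proteins tested, the 3 SV2 genes (42.9%) were called with RA and the other 4 in no comparison. The share of all genes called with RA was 23.2%. SV2 proteins are glycoproteins of synaptic and endocrine vesicles and serve as receptors of botulinum neurotoxins, and Sv2a is the target of the antiepileptic levetiracetam. Sv2a read 0.04 and 0.11 in the clone with RA and -0.57 and -1.25 in the untreated clone, against -4.66 and -3.84 in the parental line with RA and -3.35 and -2.57 in the untreated parental line. The clone stood above the parental line in both states, and the parental arrays with RA stood below the untreated ones. Its difference was 4.32 ± 0.43 with RA (20-fold, adjusted p = 0.000866) and 2.05 ± 0.43 untreated (adjusted p = 0.028). The untreated call was lost without any of the 4 untreated arrays (1.66 to 2.45, adjusted p 0.0594 to 0.169) and with normexp (1.17, adjusted p = 0.106).

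Sv2b was above background on 3 of 4 clone arrays and 0 of 4 parental arrays. It read -5.08 and -5.01, then -4.98 and -4.58 in the clone with RA and untreated, against -7.60 and -6.44, then -6.89 and -6.61 in the parental line. Sv2b was at least 2.45-fold higher in the clone with RA (adjusted p = 0.0158) and at least 2.27-fold higher in the untreated clone (adjusted p = 0.0286), the second lost without any of the 4 untreated arrays (adjusted p 0.104 to 0.189). With normexp the untreated difference of Sv2b had the opposite sign (-0.17, adjusted p = 0.896). The call with RA was lost with normexp (0.46, adjusted p = 0.673), quantile normalization (1.03, adjusted p = 0.48), a floor for dim signals (1.29, adjusted p = 0.0706), a trended variance (adjusted p = 0.0617) and only the groups compared (adjusted p = 0.0742), and the untreated call with all of these but the last (adjusted p 0.104 to 0.896). Sv2c read 2.09 and 2.80, then 0.93 and 1.52 in the clone with RA and untreated, against 0.04 and 0.67, then 0.97 and 1.26 in the parental line. Only the clone with RA stood apart from its parental counterpart, by 2.09 ± 0.39 (adjusted p = 0.0103). That call was lost without parental RA replicate 1 (1.78, adjusted p = 0.0558), in a fit of only the groups compared (adjusted p = 0.0525) and with the mean of its probes (0.99, adjusted p = 0.106), and its second probe gave -0.12 with RA. Synaptophysin (Syp), an abundant vesicle protein, was slightly higher on all 4 clone arrays, but its differences of 0.48 untreated and 0.61 with RA were not called. Sypl, Syngr1 and Syngr3 had line differences from -0.93 to 0.44.

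At the active zone, the site where vesicles dock, 0 of 8 genes were called between the untreated lines (smallest adjusted p 0.0768 for Bsn) and 4 (50%) with RA. The shares of all genes called were 9.82% and 23.2%. Unc13b encodes Munc13-2, which opens syntaxin and primes vesicles. It read -0.89 and -0.78 in the clone with RA and -3.85 and -4.19 in the untreated clone, against -3.05 and -4.45 in the parental line with RA and -4.81 and -4.19 in the untreated parental line, where it was above background on 1 array. The clone with RA stood above all other arrays, by 2.91 ± 0.49 over the parental line with RA (adjusted p = 0.00652) and by 3.18 ± 0.49, or 9.09-fold, over the untreated clone (adjusted p = 0.0233). The RA call was lost without any of the 4 untreated arrays (3.02 to 3.35, adjusted p 0.0524 to 0.183) and with normexp (2.04, adjusted p = 0.0698). The RA difference of Unc13b averaged over both lines was 1.97 ± 0.34 (adjusted p = 0.0272), which was lost without parental RA replicate 1 or any of the 4 untreated arrays (1.62 to 2.12, adjusted p 0.0547 to 0.125) and with normexp (0.93, adjusted p = 0.234). Unc13a, the main priming factor of brain synapses, was not called, with a line difference of 0.94 with RA (95% interval -0.05 to 1.93).

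Bsn encodes Bassoon, a scaffold of the active zone. It read 0.73 and 1.06 in the clone with RA and -0.64 and -0.12 in the untreated clone, against -1.29 and -0.39 in the parental line with RA and -1.98 and -1.57 in the untreated parental line. Within each state the clone stood above the parental line, by 1.73 ± 0.40 with RA (adjusted p = 0.0214) and by 1.56 ± 0.28 on average (adjusted p = 0.0068). The call with RA was lost without parental RA replicate 1 (1.28, adjusted p = 0.0854) or clone RA replicate 2 (1.57, adjusted p = 0.0502). Its relative Piccolo (Pclo) was not called, at -0.48 with RA (95% interval -1.34 to 0.37). Cadps, the priming factor CAPS of dense-core vesicles, read -4.16 and -4.64, then -5.87 and -5.52 in the clone with RA and untreated, against -7.51 and -6.41, then -5.53 and -7.47 in the parental line, where it was above background on 0 arrays. It was at least 3.79-fold higher in the clone with RA (adjusted p = 0.0335), a call lost without clone RA replicate 1, either parental RA array or either untreated clone array (2.01 to 3.1, adjusted p 0.0624 to 0.161) and under normexp (0.52, adjusted p = 0.651). Rims3, a short RIM form, read -0.65 and -0.54, then 0.59 and 0.55 in the clone with RA and untreated, against 0.61 and 1.15, then 0.39 and 0.67 in the parental line. It was lower in the clone with RA than in the other 3 groups, by -1.47 ± 0.29 against the parental line with RA (adjusted p = 0.0131), and without parental RA replicate 2 by -1.2 (adjusted p = 0.0528). Rims1 and Rims2, which link Rab3 to the active zone, were not called.

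With RA, 4 of the 48 genes (8.33%) were called in the clone, all higher, where 4.63% of all genes were, 2.58% higher and 2.05% lower. They were Rab3b, Rab27a, Stxbp5 and Unc13b. In the parental line Rab3b alone was called (2.08%), lower, where 1.12% of all genes were, 0.529% higher and 0.59% lower. The median RA difference was 0.43 for the clone and -0.10 for the parental line, and that of all genes was 0.02 in both. Of the 48 differences, 34 lay above 0 for the clone and 17 for the parental line. The median interaction was 0.47 against -0.02 for all genes, with 38 of 48 above 0, although 1 was called. The share of all genes above 0 was not counted for these RA differences or the interaction, and the signs were not tested. Averaged over both lines, 4 genes were called (8.33%), Stxbp5, Syt7 and Unc13b higher with RA and Vamp8 lower, where 5.83% of all genes were, 3.13% higher and 2.7% lower. These counts rest on few arrays: the clone count became 0 without either untreated clone array, 1 without either untreated parental array and 2 without clone RA replicate 1, and the parental count became 0 without any array but the clone RA pair and 2 without either of that pair. The average count became 0 without parental RA replicate 1 or any of the 4 untreated arrays and 2 without parental RA replicate 2. With quantile normalization the split was 2 higher and 1 lower in the clone, and 1 and 1 on average. The row of the slide goes with RA within each line, so row and RA cannot be told apart in these single comparisons or in the interaction.

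**Figure D4:**
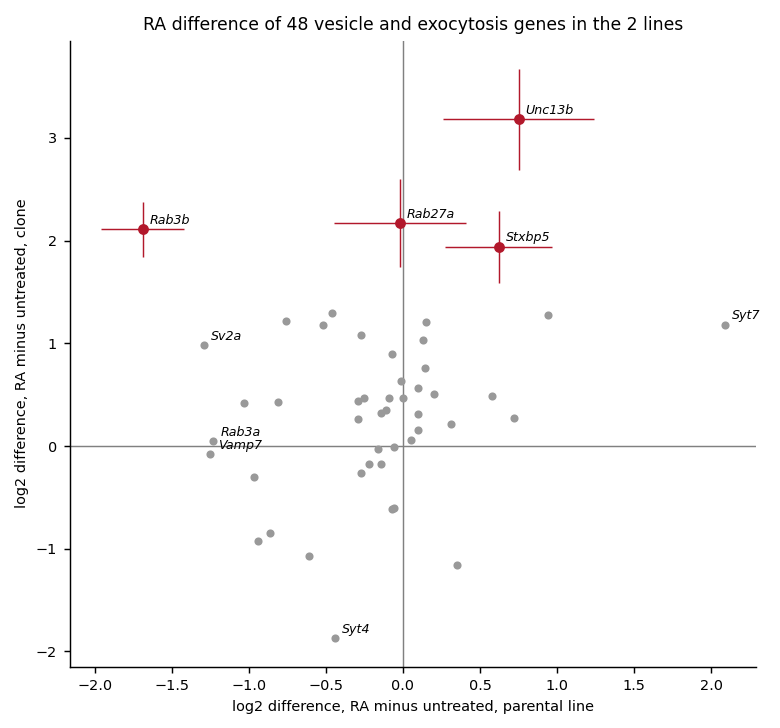
RA difference of the 48 genes in the clone (vertical) and in the parental line (horizontal), in log2 RA minus untreated; red points with standard errors were called in the clone. Rab3b lies at 2.11 for the clone and -1.69 for the parental line, and Unc13b, at 3.18, has the highest RA difference in the clone.

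For 18 of the 48 genes more than 1 probe was kept, and in 7 of them the probes lay on both sides of 0 in the average line difference. The complexin gene Cplx2 had 3 bright probes, with average differences from -0.13 to 0.36, and a dimmer one at -2.71 (adjusted p over all probes = 0.000186). The dimmer Cplx2 probe read 0.55 and 0.59, then 0.79 and 0.50 in the clone with RA and untreated, against 3.09 and 3.12, then 3.47 and 3.56 in the parental line. In Rab3c, 2 probes gave 0.44 and 0.56, and the other, 2.82 (adjusted p = 0.000296). That Rab3c probe read 2.94 and 3.52, then 1.84 and 2.00 in the clone with RA and untreated, against -0.38 and -0.51, then 0.10 and -0.20 in the parental line, with no overlap. The synaptogyrin gene Syngr1 gave -0.37 on the brighter probe and 1.53 (adjusted p = 0.0124) on a probe for another RefSeq transcript, and Snap23, a relative of SNAP-25 outside neurons, gave 0.51 and -1.05 (adjusted p = 0.0224). Opposite signs were also seen in Sv2c (1.10 and -0.47), Stx2 (0.82 and -0.38), Syt7 (-0.98 and 0.51) and, near 0, Stx4a. The second probe of Syt6 gave 2.65, the same direction as the brightest. The second probes of Stx3 and Syt3 were above background on all 4 clone arrays and on 0 parental arrays, also higher in the clone, without a measured parental level. That Stx3 probe gave 4.18 with RA (adjusted p over all probes = 0.00953), but its untreated difference of 2.39 was not called (adjusted p = 0.107). Another Stx3 probe, for another RefSeq transcript, was above background on 0 arrays of either line and was not kept.

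**Figure D5:**
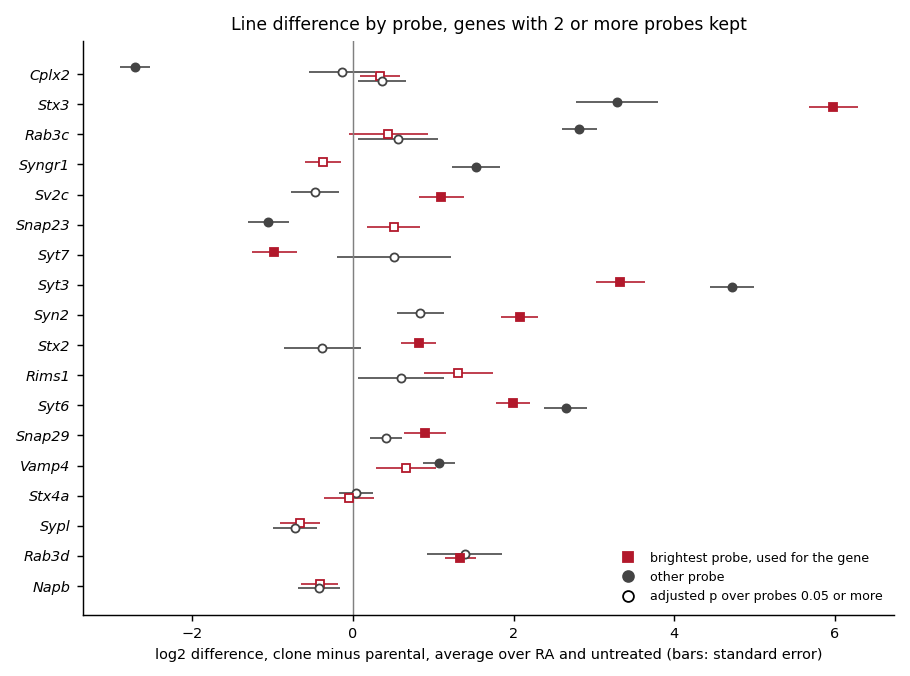
Average line difference, log2 clone minus parental with its standard error, for each probe of the 18 genes with more than 1 probe kept; squares are the brightest probe, which stands for the gene, and filled symbols have an adjusted p under 0.05 over probes. Probes of Cplx2, Snap23 and Syngr1 lie on both sides of 0, and those of Stx3, Syt3 and Syt6 on 1 side.

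Other genes of the same pathway, from lists written by role, were counted in the same fit. Of all genes, 9.82% were called between the untreated lines, 6.13% higher and 3.69% lower in the clone. With RA 23.2% of all genes were called, 12.9% higher and 10.2% lower. Of 19 active zone proteins and Rab3 regulators, 2 were higher in the untreated clone and 8 with RA, none lower, including Apba1, a Munc18-binding adaptor (2.17 ± 0.26 untreated and 2.80 ± 0.26 with RA). Of 21 docking and fusion genes, 0 were higher and 1 lower untreated (Stxbp2, a Munc18 of non-neuronal cells, at -1.38), and 3 higher and 2 lower with RA. Of 11 calcium sensors and relatives, 0 were called untreated, and with RA 3 were higher and 1, the Rab27 effector Sytl1, lower (-3.06 ± 0.38). Of 16 vesicle membrane genes 1 was higher and 1 lower untreated, and 3 higher and 1 lower with RA. The vesicular monoamine transporter Slc18a1 was at least 9.2-fold higher in the untreated clone (adjusted p = 0.00197), and the vesicular acetylcholine transporter Slc18a3 was lower there (-1.68 ± 0.28, adjusted p = 0.0112). Of 21 endocytosis genes 3 were higher untreated and 5 with RA, 0 lower in each. They were led by the endophilin gene Sh3gl2, at least 20.1-fold higher with RA (adjusted p = 0.000561). With RA, the called shares of the docking and fusion, vesicle membrane and endocytosis lists lay close to that of all genes. Those of the active zone and calcium sensor lists lay above it. Untreated, the docking and fusion and calcium sensor lists lay below the share of all genes. Differences between a list and all genes were not tested.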

How the data were processed

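RNA of 8 samples was hybridised to one-colour Agilent arrays, 2 per group. Per the file headers, Feature Extraction 10.7.3.1 subtracted background from the deposited intensity values and removed spatial trends. The authors' log2 values, deposited as a series table and used as an alternative, were those intensities on a log2 scale less a constant per array, by a check against the scanner tables.

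Here, log2 intensity was taken relative to each array's 75th percentile over the spots other than 3671 controls. Outlier spots were left out and spots of a probe averaged. A probe entered when 2 or more of the 8 arrays showed it well above background, which held for 36636 of 55681. The brightest probe stood for each gene, which gave 26262 features, and RefSeq accessions gave 15184 of them a symbol. limma 3.58.1 in R 4.3.3 fitted 1 mean per group to all arrays, with 4 residual and 3 prior degrees of freedom, and Benjamini-Hochberg adjustment ran over all features. The 5 single comparisons and 2 averages were called at an adjusted p under 0.05. The number of arrays limits the precision. The fit was tested on simulated data.

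All arrays lay on 1 slide with 1 scan. The arrays of the parental line with RA and of the untreated clone shared slide row 1, and the others row 2. Row thus goes with each single comparison, of lines or of RA, and with the interaction, and is balanced in the averages only.

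Values on each array are given for genes called in any comparison and for the Rab3, Vamp, Syt and Syn families, and the other genes by counts, ranges or their probes. Genes given outside this rule, such as Stx1a and Snap25, were chosen after their values were seen. The genes, their roles and the related and marker lists were chosen with earlier results of these data known. Alternatives were normexp correction (offset 50), quantile normalization, the series table, other limits for dim probes, a floor for dim signals, other probe rules, a variance trend with robust fitting, a fit of only the groups compared, slide side as a block, a 2-fold threshold, outlier spots kept, and leaving out each array.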

Additional observations from a re-analysis of the deposited data

Results flagged for a closer look

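The RA difference of Rab3b differed between the lines in a test of that difference. It was log2 2.11 ± 0.27 in the clone, with both arrays higher with RA, and -1.69 ± 0.27 in the parental line, with both arrays lower with RA. The interaction was 3.80 ± 0.39 (95% interval 2.89 to 4.71, adjusted p = 0.0323 in limma over 26262 genes). It kept its sign in all alternatives run and lost its call in 10 of them, among them the fits without either untreated clone array or any parental array (3.66 to 3.94, adjusted p 0.125 to 0.248), normexp correction (2.83, adjusted p = 0.122) and slide side as a block (3.80, adjusted p = 0.0572). With each probe tested on its own its adjusted p was 0.0552. Slide row goes with the interaction, and the 2 cannot be told apart.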

How the results depend on the processing

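The 68 called results of single genes were recomputed under alternatives, giving 1313 values. Of these, 1009 kept direction and call, 303 kept direction without the call, and 1 reversed, the untreated line difference of Sv2b with normexp (-0.17, adjusted p = 0.896). In all, 24 results kept their call under every alternative run, and 36 kept it whichever array was left out. Of the 68 calls, a 2-fold threshold ended 43, normexp 28, no filter 27, quantile normalization 17, only the groups compared 12 and the mean of a gene's probes 11. Omitting an array also leaves fewer residual degrees of freedom. The count of called genes between the untreated lines was 12 and became 6 with a 2-fold threshold, and with RA it was 22 and became 10. The average line count of 24 became 14 with normexp and 9 with a 2-fold threshold. Leaving out 1 array gave counts of 6 to 13 untreated (6 without clone untreated replicate 1 or 2 or parental untreated replicate 2, and 7 without parental untreated replicate 1), 16 to 23 with RA and 16 to 25 on average. For RA in the parental line the count of 1 became 0 with normexp, no filter, slide side as a block, a 2-fold threshold, only the groups compared or each probe on its own (7 to 11 genes at an unadjusted p under 0.05, other than 2 with the 2-fold threshold), 3 with probes above background on all 8 arrays or the trended variance, and 0 to 2 without 1 array (5 to 11 unadjusted where 0). For RA in the clone the count of 4 became 2 with normexp, 0 with no filter (14 unadjusted), a 2-fold threshold (4 unadjusted) or only the groups compared (17 unadjusted), and 0 to 3 without 1 array (10 to 13 unadjusted where 0). The interaction count of 1 became 0 with normexp, no filter, slide side as a block, a 2-fold threshold or each probe on its own (4 to 14 unadjusted), and 0 to 1 without 1 array, 0 without any array but the clone RA pair (7 to 14 unadjusted). The RA average of 4 became 0 with normexp (10 unadjusted), no filter (9 unadjusted) or a 2-fold threshold (2 unadjusted), 2 with quantile normalization or the mean of probes, 7 with the trended variance, and 0 to 3 without 1 array (8 to 14 unadjusted where 0). Quantile normalization moved the median line difference of all genes with RA to -0.14, against 0.11, and split the RA calls 2 higher and 1 lower in the clone and 1 and 1 on average, against 4 and 0, and 3 and 1. The causes of these changes were not tested.

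The replicate numbers were given in accession order, but in all 4 groups replicate 1 lay on the left and replicate 2 on the right side of the slide, so slide side as a block is also the fit that pairs these numbers. It ended 6 of the 68 calls of single genes: the Rab3b interaction (3.80, adjusted p = 0.0572) and parental RA difference (-1.69, adjusted p = 0.0635), Syt7 between the lines with RA (-1.43, adjusted p = 0.0512) and on average (-0.98, adjusted p = 0.05), and Vamp8 in both averages (adjusted p 0.0586 and 0.0647). Dim signals limit Stx3, Syt9, Sv2b and Cadps, whose parental levels are bounds, and Rph3a, whose untreated parental level is a bound.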
